A study of Mus musculus with 6 samples.

Results

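Interferons are secreted proteins that cells release on sensing a virus, and this account follows 9 genes that carry or limit the response to them: Irf1, Irf2, Irf3, Irf7, Irf9, Stat2, Socs1, Ifngr1 and Cxcl10. They were chosen by name from the gene column of the authors' deposited table at a time when its minus_Dox and plus_Dox values were already known. Each matched 1 of the 36699 rows, all 9 rows were tested by the authors, and 1 row, that of Irf9, also holds the gene Rnf31. The RNA of 6 libraries came from mouse embryonic stem cells of the A2Lox.cre line, which was made for inserting a doxycycline-inducible transgene, which here codes for Lef1 with a Flag tag. All libraries carry the transgene and were harvested on day 3 of embryoid body culture, in which the cells aggregate and start to differentiate. In the 3 plus_Dox libraries doxycycline was added on day 2 and acted for 24 h, and the 3 minus_Dox libraries had none, so that an effect of doxycycline itself and one of induced Lef1 cannot be told apart here. The stem cells had been kept on embryonic fibroblasts of FVB mice, which were removed before aggregation.

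The table gives 1 level for each gene and group, in FPKM (fragments scaled to transcript length and sequencing depth), computed by the authors over 3 libraries. Values of single libraries, their overlap between groups and their spread are therefore not analysed here, and no level has an error of its own. The error of a change is the standard error (SE) that follows from the authors' test statistic, and a gene is called changed where the deposited q-value, a p-value adjusted over all tested rows, is under 0.05. Nothing in the labels says that the libraries came from separate cultures, so the q-values measure a spread that may be technical. The induced gene behaved as its label says: Lef1, which binds DNA and recruits beta-catenin in Wnt signalling, was listed at 7.56 FPKM without and 51.0 FPKM with doxycycline.

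Interferons act through paired receptors at the cell surface. Type II interferon binds a receptor made of Ifngr1 and Ifngr2 and leads to the binding of DNA at sites called GAS. Type I interferons activate Stat2, which joins Irf9 in a complex that binds a different site, the ISRE, in front of antiviral genes. Irf3 and Irf7 act earlier, since they switch on the interferon genes once a virus is sensed. Irf1 is itself a target of the pathway and activates other targets, Irf2 competes with it for the same sites, Socs1 blocks the Jak kinases in a negative feedback, and Cxcl10 is a secreted chemokine that attracts T cells. Pluripotent cells are known for a weak interferon response, which builds up as they differentiate.

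Of the 9 genes, 4 were called in the authors' deposited table, all higher in plus_Dox: Cxcl10, Irf1, Socs1 and Irf3. The other 5, Irf9 with Rnf31, Ifngr1, Irf2, Stat2 and Irf7, were not called. Over all 18114 tested rows, 12.2% were called and 8.98% were called higher. Since the genes were chosen with this same contrast known, their calls are given as a description of the table, and nothing is read from their share.

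The sites that interferon signalling uses can be looked for in front of these genes. The sequences show which genes hold the letters of a GAS or ISRE core near the start. Variant letters and more distant sites were not searched, so a gene without a match may still have such a site. The 250 bases before each RefSeq start site (build GRCm38.p6, another build than that of the expression table) were searched on both strands for 4 short motifs. These were the ISRE core GAAANNGAAA, the GAS core TTCNNNGAA, which reads the same on both strands, the NF-kB core GGGANNTTCC and the core bound by Tcf and Lef factors, CTTTGA. All 9 genes had an entry, Irf1 and Irf9 with an additional start site each, which made 11 windows. In 10 of the 11, the bases after the start were found in a GENCODE transcript of the gene, the exception being Stat2. The window of the second Irf1 start site (chr11:53770223-53770472) held no match and is not printed. For each of the 4 called genes 1 window is given in full and lower case, 5′ to 3′ on the strand of the gene, with matches in capitals:
Irf1 (chr11:53769764-53770013, plus strand, GAS in capitals): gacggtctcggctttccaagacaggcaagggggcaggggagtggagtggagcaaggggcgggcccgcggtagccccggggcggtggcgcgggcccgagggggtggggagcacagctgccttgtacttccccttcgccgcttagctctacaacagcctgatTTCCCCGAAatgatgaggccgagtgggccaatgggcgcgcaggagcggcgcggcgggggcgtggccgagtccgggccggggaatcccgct
Socs1 (chr16:10785537-10785786, minus strand, overlapping ISRE cores in capitals): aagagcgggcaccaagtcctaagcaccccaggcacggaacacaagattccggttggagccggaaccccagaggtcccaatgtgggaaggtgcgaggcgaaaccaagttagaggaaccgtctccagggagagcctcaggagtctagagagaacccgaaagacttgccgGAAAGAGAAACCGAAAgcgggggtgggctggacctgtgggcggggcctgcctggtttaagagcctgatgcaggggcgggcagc
Cxcl10 (chr5:92348890-92349139, minus strand, ISRE then NF-kB core in capitals): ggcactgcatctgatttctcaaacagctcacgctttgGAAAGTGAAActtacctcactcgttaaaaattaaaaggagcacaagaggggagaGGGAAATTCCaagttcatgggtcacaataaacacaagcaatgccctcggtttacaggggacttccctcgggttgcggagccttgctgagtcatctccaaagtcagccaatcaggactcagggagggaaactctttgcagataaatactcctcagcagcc
Irf3 (chr7:44997398-44997647, plus strand, no match): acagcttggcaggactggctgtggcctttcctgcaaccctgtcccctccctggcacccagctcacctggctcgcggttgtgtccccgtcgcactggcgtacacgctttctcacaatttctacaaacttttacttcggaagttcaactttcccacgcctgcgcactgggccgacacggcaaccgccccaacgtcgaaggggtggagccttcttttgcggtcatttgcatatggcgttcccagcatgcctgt

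Irf1 had its GAS core 90 to 82 bases before the start. Socs1 had a pair of ISRE cores that share 4 bases, beginning 83 and 77 bases before it, and Cxcl10 had an ISRE core beginning at 213 and an NF-kB core at 159 bases before it. Matches were not limited to called genes. Stat2 and Irf2, which were not called, held an ISRE core too, shown here with 10 bases or fewer on either side and, for Irf2, with the GAS core beside it:
Stat2 (chr10:128270266-128270295, plus strand, ISRE core on the opposite strand): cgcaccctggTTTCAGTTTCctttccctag
Irf2 (chr8:46739495-46739539, plus strand, ISRE then GAS core): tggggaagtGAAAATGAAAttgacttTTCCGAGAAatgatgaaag

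An ISRE core was thus present in front of 4 of the 9 genes. Counted by window it was in 4 of 11, against 2.98% of all 32851 windows of this length in the RefSeq table. A GAS core was present for 2 genes, in 2 of the 11 windows, against 7.02% of all windows. An NF-kB core was present for 1 gene, in 1 of the 11 windows, against 1.21%. The Tcf/Lef core, found in 13.8% of all windows, matched none of the 11, which says only that these letters are not in the 250 bases searched. The genes were picked as members of the interferon pathway, so that such sites are part of what they are known for, and a match is not evidence of binding in these cells.

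**Figure D1:**
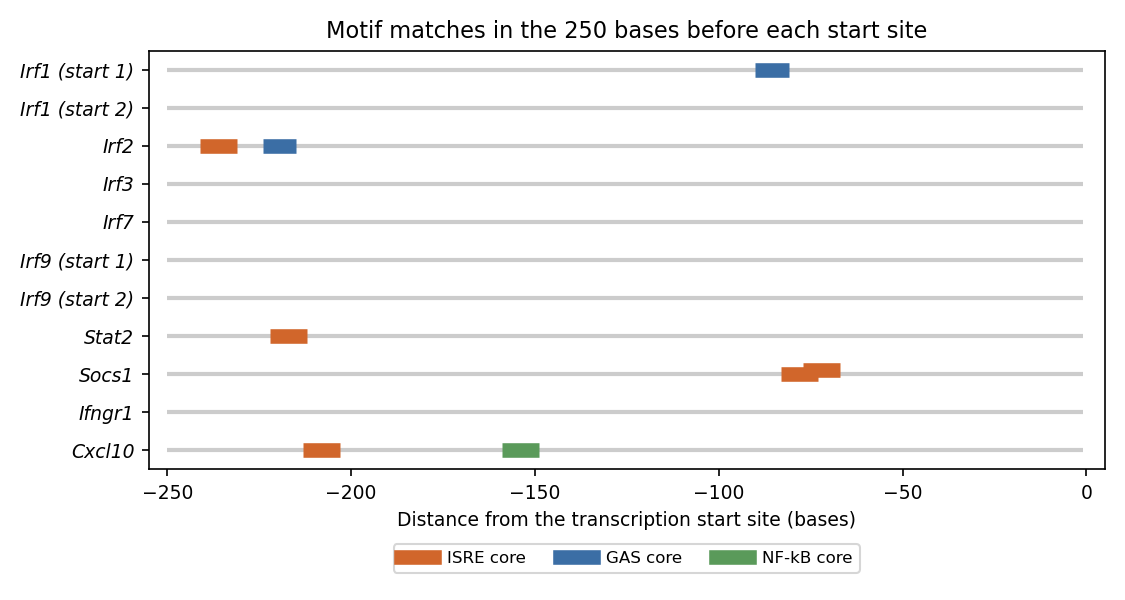
Matches of 3 motif cores in the 250 bases before each start site, with the distance from the start in bases on the horizontal axis and 1 line for each of the 11 start sites. Irf2, Stat2, Socs1 and Cxcl10 have an ISRE core, Irf1 (its first start) and Irf2 a GAS core, and Cxcl10 an NF-kB core; the overlapping cores of Socs1 are drawn at slightly different heights.

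Among the receptor and the signal transducers, levels were nearly equal in the groups. Ifngr1, the chain that binds type II interferon, stood at 3.61 FPKM in minus_Dox and 3.92 FPKM in plus_Dox. Its fold of 1.09 had a 95% interval of 0.793 to 1.48 (authors' deposited table, log2 fold 0.12, SE 0.23, q = 0.88). Stat2, the transducer of type I signals, stood at 4.19 and 4.07 FPKM. Its fold was 0.970, with an interval of 0.747 to 1.26 (authors' deposited table, SE 0.19, q = 0.98), the narrowest interval of the 9 on the log2 scale. A change of Ifngr1 or Stat2 by 2-fold in either direction lies outside these intervals as deposited. The spread behind them may be technical, so they may be too narrow for separate cultures.

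Irf9, the DNA-binding partner of Stat2, has no value of its own. Its row spans chromosome 14 from 56210545 to 56228867 in mm9, the build in the submitters' processing notes, and adds up Irf9 and Rnf31, a ubiquitin ligase gene beside it. The joint level was 10.6 FPKM without and 13.5 FPKM with doxycycline. The fold of 1.28 had an interval of 0.846 to 1.92 (authors' deposited table, q = 0.57), and the share of each gene in it cannot be read from the table.

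Irf3 and Irf7, the factors that start interferon production, differed widely in level. Irf3 was listed at 19.1 FPKM in minus_Dox, the highest of the 9, and 31.0 FPKM in plus_Dox. The rise was 1.62-fold with an interval of 1.17 to 2.26 (authors' deposited table, log2 fold 0.70, SE 0.24, q = 0.035). Its deposited interval on chromosome 7, 52242270 to 52258218 in mm9, is shared with Bcl2l12, a Bcl2 family gene, and the predicted gene Gm15545. Those rows had similar values without being called: Bcl2l12 stood at 14.8 and 22.7 FPKM (authors' deposited table, log2 fold 0.62, q = 0.37) and Gm15545 at 14.5 and 21.4 FPKM (log2 fold 0.57, q = 0.44). The sources used here do not say how reads were divided among overlapping genes, so the value of Irf3 is uncertain to that extent.

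Irf7 was at the bottom of the range, at 0.146 FPKM in minus_Dox and 0.132 FPKM in plus_Dox, and 10.8% of tested rows had a lower mean level. The implied SE was 44.7 in log2 units (authors' deposited table, q = 1.00), so the table says nothing of the size or direction of a change in Irf7. This row lists the same interval on chromosome 7, 148414683 to 148452380 in mm9, as Phrf1, which stood at 28.4 and 35.4 FPKM.

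Irf1 and Irf2, an activator and its competitor at the same DNA sites, parted in both level and change. Irf1 was listed at 17.3 FPKM in minus_Dox and 38.5 FPKM in plus_Dox, where it was the highest of the 9. The rise was 2.22-fold with an interval of 1.64 to 3.01 (authors' deposited table, log2 fold 1.15, SE 0.22, q = 1.97e-05). The Irf1 row covers chromosome 11 from 53583516 to 53591876 in mm9, 8361 bases, and shares them with the predicted gene Gm17334, which was below 1 FPKM in both groups (0.148 and 0.399). Irf2 was listed at 0.324 and 0.316 FPKM, and its fold of 0.977 had an interval of 0.611 to 1.56 (authors' deposited table, q = 1.00). In minus_Dox and in plus_Dox alike, Irf2 and Irf7 were the 2 genes of the 9 below 1 FPKM.

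Socs1, the feedback inhibitor of Jak kinases, stood at 2.31 FPKM in minus_Dox and at 4.15 FPKM in plus_Dox. The rise was 1.80-fold with an interval of 1.30 to 2.49 (authors' deposited table, log2 fold 0.85, SE 0.24, q = 0.0075). Its row on chromosome 16, 10783901 to 10785629 in mm9, overlaps no other row. It lies in the middle of the tested rows by level, with 48.3% of them lower.

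Cxcl10, the secreted target gene of the set, had the largest fold of the 9. It was listed at 1.08 FPKM in minus_Dox and 3.63 FPKM in plus_Dox, a 3.36-fold rise with an interval of 1.90 to 5.92 (authors' deposited table, log2 fold 1.75, SE 0.42, q = 0.00095). In absolute terms the gain was 2.55 FPKM, against 21.2 FPKM for Irf1. The deposited interval on chromosome 5, 92760853 to 92843654 in mm9, also lists Cxcl11, Art3 and Gm2673. Cxcl11, a related chemokine gene, stood at 0.228 and 0.490 FPKM and was not called (log2 fold 1.10, SE 0.60 and q = 0.26 in the authors' deposited table). Art3 was at 0.0712 and 0.0793 FPKM. The row of Gm2673 was not tested and held at most 0.00197 FPKM. By these listed levels Cxcl10 was the highest of the interval. As for Irf3, how reads were divided among the overlapping genes is not known.

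**Figure D2:**
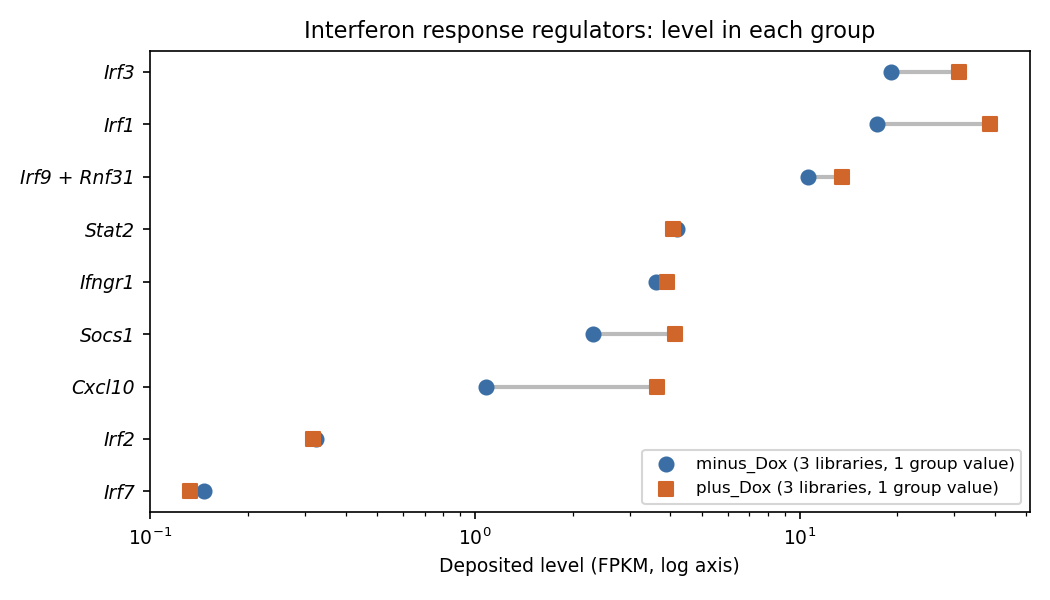
Deposited level of each gene in FPKM on a log axis, 1 circle for minus_Dox and 1 square for plus_Dox, each a group value over 3 libraries. Cxcl10, Irf1, Socs1 and Irf3 lie to the right in plus_Dox, while the points of Stat2, Ifngr1, Irf2 and Irf7 nearly coincide.

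By level per transcript length, the order in minus_Dox was Irf3, Irf1, the row of Irf9 with Rnf31, Stat2, Ifngr1, Socs1, Cxcl10, Irf2 and Irf7, from 19.1 to 0.146 FPKM. In plus_Dox, Irf1 stood above Irf3 and Socs1 above Stat2 and Ifngr1, and the other places were as before. Whether neighbours in this order differ beyond their spread cannot be told from group values. The sum over the 9 rows was 58.7 FPKM in minus_Dox and 99.3 FPKM in plus_Dox, most of it from Irf1 and Irf3.

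The median log2 fold of the 9 rows was 0.35, beside 0.20 for all tested rows with a finite fold. The groups as deposited are thus shifted against each other, and genes rich in G and C tended to have higher folds. Across 11596 single genes with at least 1 FPKM, Spearman's coefficient of the log2 fold with GC content was 0.65, and with transcript length -0.47. Genes are not independent replicates, and this is a description. GC content of the transcript was 52.8% for Irf1, 49.9% for Cxcl10, 58.8% for Socs1 and 56.7% for Irf3. Genes within 2 percentage points of each had median log2 folds of 0.33, 0.17, 0.53 and 0.47, in the same order.

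When the median of all genes with at least 1 FPKM (0.20) was subtracted, Cxcl10 (log2 fold 1.55, q = 0.0047) and Irf1 (0.95, q = 0.00070) were still called from the values of the authors' deposited table. Socs1 (0.65, q = 0.067) and Irf3 (0.50, q = 0.21) were not. On this scale 9.56% of all rows were called and 3.47% were called higher, and the balance of calls turned over, from 1626 higher and 584 lower as deposited to 618 higher and 1087 lower. When a smooth trend on GC content and length was removed, Cxcl10 stood at 1.40 (q = 0.040) and Irf1 at 0.78 (q = 0.028), from the authors' deposited table, both called, beside 2.17% of all rows called and 1.21% called higher (202 higher, 160 lower). The trend itself was 0.35 for Cxcl10, 0.37 for Irf1, 0.50 for Socs1 and 0.53 for Irf3. Socs1 then stood at 0.35 (q = 0.89) and Irf3 at 0.18 (q = 1.00), again from the authors' deposited table. The transcript used for the trend of Socs1 had 2908 bases, more than the 1729 bases that its deposited row spans. The trend-removed value of Socs1 is uncertain to that extent. The uncalled genes stayed uncalled on both scales, with log2 folds after trend removal of -0.08 for Ifngr1, -0.13 for Irf2, -0.21 for Stat2 and -0.60 for Irf7. Ifngr1 changed its sign, from 0.12 as deposited to -0.08 on both scales, and the joint row of Irf9 has no value after trend removal.

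**Figure D3:**
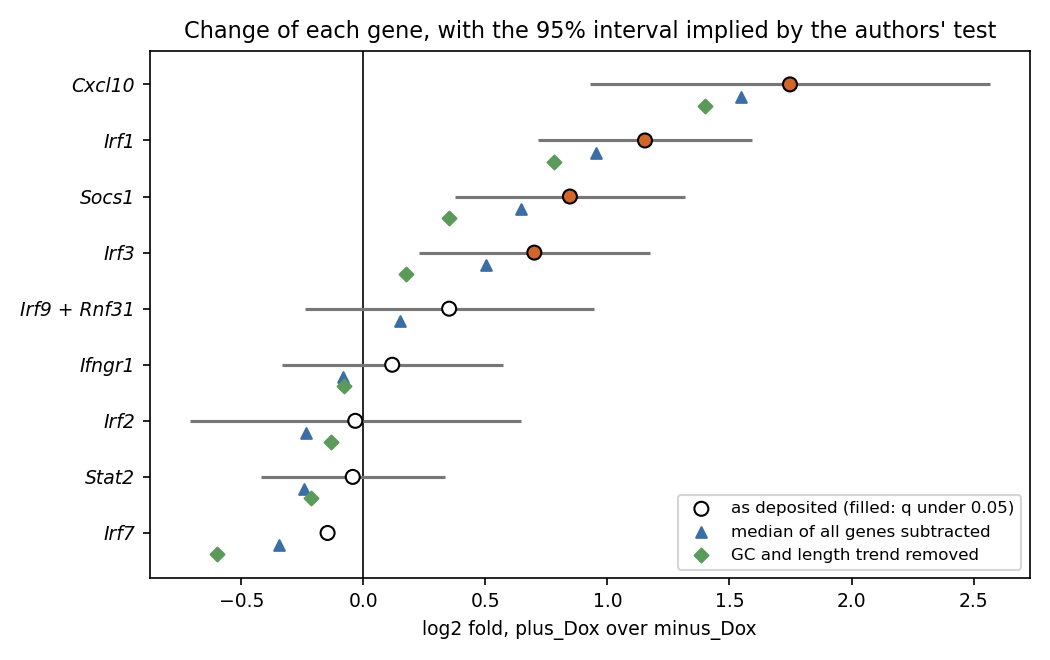
log2 fold of plus_Dox over minus_Dox for each gene, with circles as deposited (filled where q is under 0.05), horizontal lines for the 95% interval from the implied SE, triangles after subtraction of the median and diamonds after removal of the GC and length trend. Cxcl10 and Irf1 are to the right of 0 under all 3, at 1.40 and 0.78 for the diamonds, and Irf7 has no line because its implied SE exceeds 1.

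**Figure D4:**
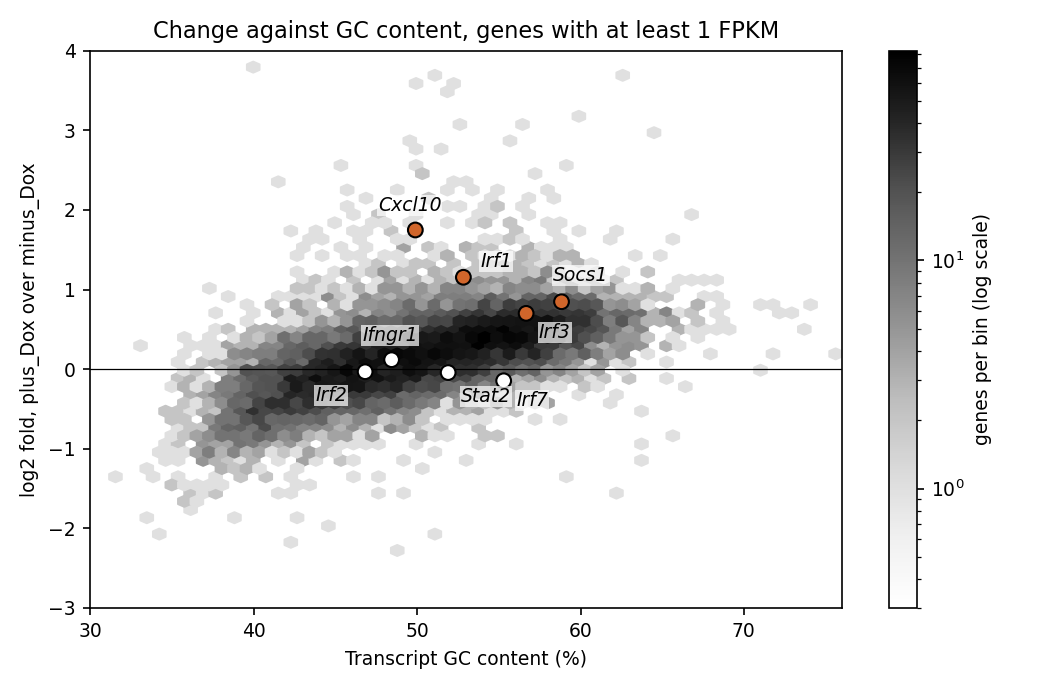
log2 fold of plus_Dox over minus_Dox against transcript GC content in percent, as a density of 11596 single genes with at least 1 FPKM (darker grey for more genes per bin), with 8 of the 9 genes as circles, filled where called as deposited. Irf2 and Irf7 are drawn although they are below 1 FPKM, and 7 genes lie outside the axes; Cxcl10 and Irf1 lie above the main band, and Socs1 and Irf3 at its upper side.

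The rest of the pathway was read from 10 lists of 147 symbols, of which 139 rows were found and 102 were tested. By the q-values of the authors' deposited table, 7 of these rose, 1 fell and 94 were not called, beside 12.2% called among all tested rows, and the median log2 fold was 0.29. After trend removal 1 of 98 was called, beside 2.17% of all rows, and the median was 0.10 against -0.02 over all genes.

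Interferon genes themselves were all but silent in the table. None of the 19 rows of the ligand list was tested, 17 were listed at 0 in both groups, and the highest value was 0.0153 FPKM. Of 8 tested rows of receptor chains and Jak kinases, none was called, beside 12.2% of all tested rows. Their log2 folds ran from -0.14 to 0.77. The highest mean levels over both groups were those of Ifnar1, a chain of the type I receptor (11.9 FPKM in both groups), and the kinase Jak1 (8.92 and 8.09 FPKM). None of the 6 other Stat genes was called either, and in lists this small nothing is read from such counts. Of these, Stat6 (20.3 and 23.7 FPKM) and Stat3 (4.44 and 5.09 FPKM) had the highest mean levels.

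The next counts also stand beside 12.2% of all tested rows called, and in lists this small nothing is read from them. Sensors of viral nucleic acid and their kinases gave no call among 16 tested rows. The most abundant were Irak1 (14.7 and 15.6 FPKM), a kinase of Toll-like receptor signalling, and Tbk1 (13.5 and 13.2 FPKM), which phosphorylates Irf3. Brakes of the pathway gave none among 9, led in level by Trim28 (376 and 510 FPKM), a corepressor, and the phosphatase gene Ptpn2 (33.8 and 34.4 FPKM). None of the 6 tested relatives of Socs1 was called, the most abundant of these being Socs6 (15.5 and 15.0 FPKM) and Socs4 (6.27 and 4.46 FPKM). Socs2 was listed higher, at 40.1 and 43.8 FPKM, but its row has the status of a failed test. Socs3, a feedback gene of other cytokines that is named after its value was seen, stood at 1.12 and 2.09 FPKM (authors' deposited table, log2 fold 0.90, q = 0.078). Of the 4 other tested Irf factors and Irf2-binding proteins, Irf2bp1, a corepressor that binds Irf2, rose from 10.6 to 17.0 FPKM (q = 0.0015, authors' deposited table). Its log2 fold was 0.69 as deposited and 0.49 after subtraction of the median, where it was still called. After trend removal it was 0.14, and the gene was not called.

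Antiviral effectors, the usual targets of the pathway, were mostly low and moved both ways. Of 39 rows 24 were below 1 FPKM in both groups, and of 32 tested rows 3 were called higher and 1 lower by the authors' deposited table, with a median log2 fold of 0.25. These counts are close to the share over all tested rows, 8.98% called higher and 12.2% called in either direction. Bst2, the membrane protein tetherin that holds back budding virus, rose from 117 to 235 FPKM (q = 4.5e-08 in the authors' deposited table, SE 0.16, log2 fold 1.01). Oas1a, an enzyme gene of the antiviral RNA-decay system with near-identical copies, rose from 0.353 to 1.00 FPKM, and Oasl2 from 0.484 to 1.36 FPKM (authors' deposited table, folds of 2.83 and 2.82, q = 0.0037 and 0.030). Rsad2, the antiviral enzyme viperin, fell from 0.158 to 0.0529 FPKM (q = 0.032 in the authors' deposited table, SE 0.54, log2 fold -1.58). After subtraction of the median, Bst2 (q = 2.6e-05) and Oas1a (q = 0.018) were still called higher, from the values of the authors' deposited table. Rsad2 was still called lower on that scale (q = 0.015), and Oasl2 was not called (q = 0.084). None of these 4 was called after trend removal, where the log2 fold of Bst2 was 0.34. Those of the other 3 were still large there, at 1.13 for Oas1a, 1.36 for Oasl2 and -1.44 for Rsad2. Isg15 (0.0612 and 0.222 FPKM), Ifit1 (0.0331 and 0.0425 FPKM) and Mx1 (0.0155 and 0.00923 FPKM), classical targets named after their values were seen, were at low levels in both groups. Isg15 was not called, and Ifit1 and Mx1 were not tested. Ifit2, also named after its values were seen, stood at 2.15 and 1.43 FPKM and was not called (q = 0.055 in the authors' deposited table). It was called lower after subtraction of the median (q = 0.0063, from the same values) but not after trend removal.

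Of 9 tested chemokine rows, 1 was called, beside 12.2% of all tested rows. This was Cx3cl1, a membrane-bound chemokine gene, which rose from 1.15 to 3.29 FPKM (q = 3.5e-06 in the authors' deposited table, SE 0.27, log2 fold 1.51). It was the 1 gene of the 10 lists called after trend removal, at 1.09 (q = 0.0057). Cxcl9, which with Cxcl10 and Cxcl11 binds the receptor Cxcr3, was not tested and held at most 0.00116 FPKM, and Cxcr3 was listed at 0 in both groups; both are named after their values were seen. In the NF-kB list, 2 of 12 tested genes were called higher by the authors' deposited table and none lower, beside 8.98% of all tested rows called higher. The median log2 fold of this list was 0.50, or 0.12 after trend removal. The called genes were Relb, an NF-kB subunit (2.09 to 4.10 FPKM, q = 0.0012), and Nfkbib, an inhibitor of NF-kB (32.0 to 55.5 FPKM, q = 0.0033), from the authors' deposited table. Both were still called higher after subtraction of the median, at log2 folds of 0.77 and 0.60. Neither was called after trend removal, at 0.38 and 0.21.

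**Figure D5:**
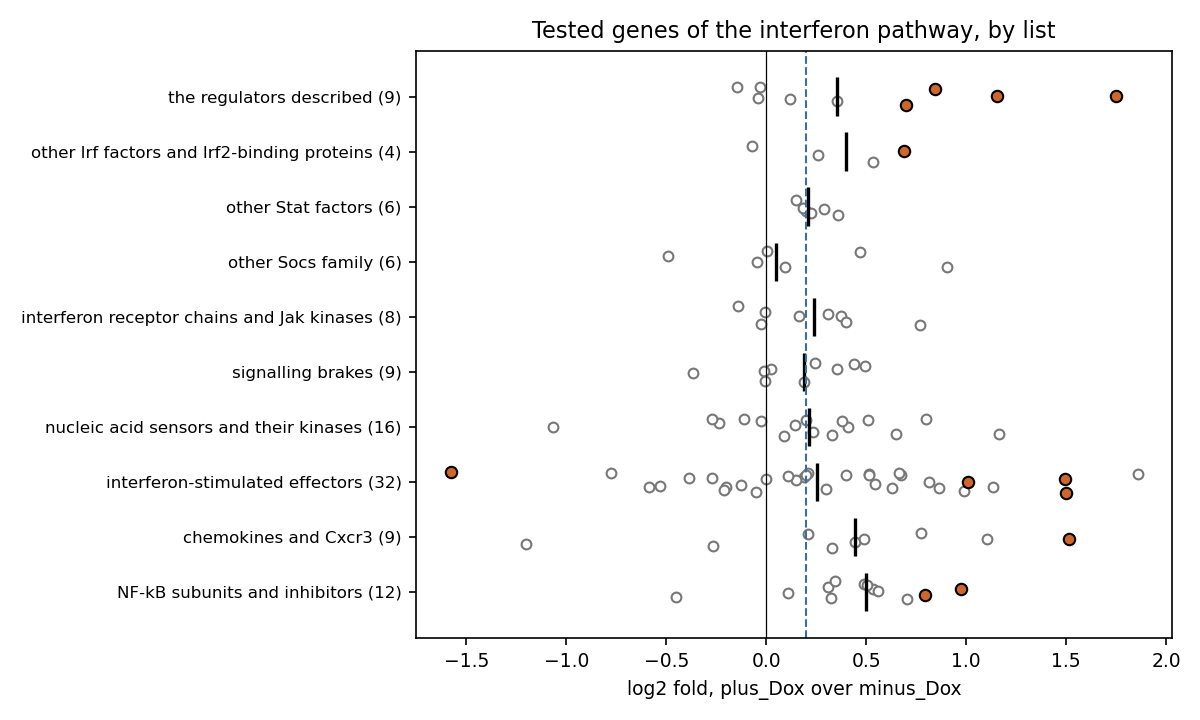
log2 fold of plus_Dox over minus_Dox for each tested gene of the pathway, 1 row of points per list with the number tested in parentheses, filled where called as deposited, with a black bar at the list's median and a dashed line at the median of all tested rows (0.20). The ligand list has no tested row and is not drawn; filled points are 4 of the 9 regulators described, Irf2bp1, 4 effectors, Cx3cl1, Relb and Nfkbib.

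Pluripotent markers were present at widely differing levels in these day 3 embryoid body cells. Markers of leukocytes, endothelium and blood progenitors were mostly low, and those of fibroblasts less so. Of 12 pluripotent markers none was below 1 FPKM in both groups, led by Pou5f1 at 820 and 1510 FPKM, which was not called (q = 0.055 in the authors' deposited table). Esrrb was near that limit, at 0.843 and 1.02 FPKM, and Zfp42 stood at 7.69 and 8.996 FPKM. Neither was called. Of the 11 tested pluripotent markers, 4 were called higher and 1 lower as deposited. Over all tested rows 12.2% were called and 8.98% were called higher as deposited, which also stands beside the deposited marker counts below. Nanog (28.6 and 109.7 FPKM) and Tdgf1 (31.3 and 190.5 FPKM) were called higher on all 3 scales, and Sox2 (56.2 and 30.9 FPKM) was called lower on all 3. Dppa5a and Utf1 were called higher only as deposited. The row of Dnmt3b carries a status that marks too many fragments to compute, so its 0 in minus_Dox is no measured absence, and the other 11 summed to 1791 FPKM in minus_Dox and 2942 FPKM in plus_Dox. Of 11 rows for leukocyte and macrophage markers 10 were below 1 FPKM in both groups, with a sum of 4.94 and 7.95 FPKM. The pan-leukocyte gene Ptprc was at 0.0268 and 0.0188 FPKM. Cd68 (3.73 and 5.96 FPKM) made up most of the sum, and Lyz2, a lysozyme gene, was the 1 of 6 tested rows called as deposited (0.498 and 0.973 FPKM, q = 0.034 in the authors' deposited table), and it was not called on either shifted scale. The log2 fold was above 0 in 5 of the 6. Over all tested rows with a finite fold, 11600 were above 0 and 6230 below 0, so nothing is read from this count. Of 16 rows for fibroblast markers 7 were below 1 FPKM in both groups. Of the 14 tested, 3 were called higher and none lower by the authors' deposited table. Their log2 folds were above 0 in 11 and below 0 in 3, again beside 11600 and 6230 over all tested rows. The calls were Tagln, Acta2 and Twist1 (1.21 and 2.12 FPKM, q = 0.021 in the authors' deposited table). Of these, Acta2 was also called after trend removal. Thy1 stood at 11.9 and 16.6 FPKM and was not called (q = 0.055 in the authors' deposited table). After subtraction of the median 2 of the 14 were called higher and 1 lower. On that scale 9.56% of all rows were called and 3.47% were called higher. The lower one was Pdgfra (1.41 and 0.988 FPKM), a receptor of mesenchymal cells. The matrix gene Dcn, not called, stood at 2.12 and 1.52 FPKM. The sum over all 16 was 128 FPKM in minus_Dox and 238 FPKM in plus_Dox. Most of that was Tagln (87.4 and 176 FPKM) and Acta2 (18.8 and 34.1 FPKM), muscle-type genes that are not limited to fibroblasts, whereas the collagen gene Col1a1 was at 0.888 and 1.32 FPKM and was not called. Of 8 endothelial and blood progenitor rows 7 were below 1 FPKM in both groups, with sums of 3.48 and 3.65 FPKM. In such bulk RNA, more cells of a type and more RNA per cell cannot be told apart, and the part of the pluripotent, fibroblast and macrophage markers in the values of Irf1, Socs1, Irf3 and Cxcl10 was not tested.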

How the data were processed

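RNA sequencing of 6 libraries, 3 minus_Dox and 3 plus_Dox, was grouped by title. Cuffdiff, Cufflinks 2.0.2, TopHat2 2.0.8, Picard, Bowtie and build mm9 are listed, with no roles, in the submitters' processing notes. For annotation and strand setting, nothing is given in the sources used here. A deposited Cuffdiff table gives 1 FPKM value per gene and group, made by the authors over 3 libraries. Per the file headers it also gives a log2 fold, read here as a score column because a group at 0 is marked by a placeholder number, a test statistic (also a score), and the p-value and q-value of the authors' own test. The fold was checked to equal the ratio of the FPKM values within 0.0014, and q to be Benjamini-Hochberg values over 18114 tested rows. Deposited starts count from 0 (3644 spans equal RefSeq gene lengths that way, 329 otherwise), so 1 was added. Library depth is unknown, since the values are pooled.

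The SE is the absolute log2 fold divided by the absolute statistic. For the shifted scales, p came from a normal distribution with that SE, adjusted over 17830 rows (median) or 16658 rows (trend). A least-squares fit on cubic splines (6 knots each) gave the trend, over rows with at least 1 FPKM and an SE under 1. The trend is a function of GC content and log2 length of the longest basic GENCODE vM21 transcript. The code was run on simulated rows with at least 1 FPKM, a linear trend and normal noise of the same SE. Such a run cannot show whether the fit suits the real trend or rows under 1 FPKM. Members, lists and tests were chosen with earlier results of these data known. Named genes are the members, rows overlapping them, per list up to 5 calls of largest fold, and the 2 most abundant tested genes of lists without a call; 7 symbols of the lists are not analysed here, and the values of 1 gene are not reported here. Alternatives were q of 0.01 and 0.1, 2-fold, 1 or 5 FPKM, pseudocounts of 1 and 0.1, both shifted scales, and rows of several genes left out. Python 3.11.15, numpy 2.4.6, pandas 2.3.3 and scipy 1.17.1 were used.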

Additional observations from a re-analysis of the deposited data

How the results depend on the processing

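Of the 9 genes, 4 were called as deposited, 3 at a q-value of 0.01 and 4 at 0.1, at 1 FPKM in the higher group or without the joint row of Irf9. With a minimum of 2-fold, after subtraction of the median and after trend removal, 2 were called, in each case Cxcl10 and Irf1. With a minimum of 5 FPKM 2 were called, Irf1 and Irf3. All these calls were rises. The median log2 fold of the 9 rows, 0.35, was 0.15 after subtraction of the median, 0.048 after trend removal over 8 rows, and 0.32 and 0.35 with pseudocounts of 1 and 0.1 FPKM. The log2 fold of Cxcl10 was 1.15 with a pseudocount of 1 FPKM, a scale that understates changes of low genes. Over the rest of the pathway, 8 of 102 genes were called as deposited (7 higher, 1 lower), 14 at a q-value of 0.1 (12 higher, 2 lower), 5 with a minimum of 2-fold, 3 with a minimum of 5 FPKM and 1 after trend removal. Subtraction of the median gave 9, of which 6 were higher and 3 lower. Of all rows, 12.2% were called as deposited, 9.56% after subtraction of the median and 2.17% after trend removal. At the other settings the share of all rows was not computed, so nothing is read from those counts. The cause of the differences between settings was not tested. No paired analysis was possible because the deposited table holds no values of single libraries, and for the same reason leaving out each replicate was not run. The implied SE leaves the change of Irf7 undetermined, and what depth limits cannot be read from pooled values.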
